A study of Mus musculus with 3 samples.

Results

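Claudins are membrane proteins that span the lateral edge of epithelial cells at the tight junction, where strands of claudins from neighbouring cells meet and set which ions and how much water pass between the cells. Some claudins form pores, chiefly for cations (Cldn2, Cldn15 and the b form of Cldn10), whereas others mostly seal the junction (Cldn1, Cldn3) or reduce its permeability to cations (Cldn4, Cldn8). In the kidney each tubule segment has its own set of claudins, Cldn2 being typical of the leaky proximal tubule. In the intestine Cldn2 and Cldn12 have been linked to vitamin D-dependent uptake of calcium between cells. The 10 claudin genes described here (Cldn1, Cldn2, Cldn3, Cldn4, Cldn6, Cldn7, Cldn8, Cldn10, Cldn12 and Cldn15) were taken by gene name from the array design, out of 37008 gene names on the array, and each of their 12 probes is given. Of the 10 genes 8 had 1 probe, and Cldn2 and Cldn7 had 2 probes each.

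The cells were mpkDCT, a mouse line of the kidney's distal convoluted tubule, and all groups carried a CRISPR-Cas9 knockout of Cyp27b1, the enzyme that converts 25(OH)D3 (calcidiol) into 1,25(OH)2D3 (calcitriol). From 24 h before treatment the cells were in medium that lacked phenol red and held 2% stripped serum, and they received vehicle, calcitriol at 1e-07 M or calcidiol at 1e-07 M for 24 h. Each of the 3 groups was measured on 1 array, all on the same slide. The labels do not say whether the knockout line is a single clone, and they carry a tag (siCT) that they do not explain. One description writes the third compound with an additional hydroxyl group, whereas its treatment tag, used here, reads 25(OH)D3. The comparisons ask which claudin transcripts differed with the active hormone and which with its precursor when the converting enzyme had been targeted. Because a group is a single array, the differences have no check by replication and none was tested. Values after ± are the error that the scanner software assigns to a spot, which leaves out variation between cultures.

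Processed signals are fluorescence intensities after background subtraction. A probe counted as detected where the scanner software called it well above background, and the lowest such signal was 13.4 with vehicle, 13.8 with calcitriol and 17.9 with calcidiol. About the same share of spots was detected on each array (50.98%, 49.92% and 49.7%). Where a spot does not exceed background, the software writes a small surrogate signal, and 13 of the 36 claudin signals were surrogates. The levels of different claudins are not ranked against each other, since probes differ in how strongly they bind. Markers chosen for the labelled cell type were mostly not detected. Slc12a3, the thiazide-sensitive cotransporter that defines the distal convoluted tubule, was not detected on any array, and 1, 2 and 2 of 7 markers of that segment were detected with vehicle, calcitriol and calcidiol, with summed signals of 73.4 to 103. Of 6 general epithelial markers only Tjp1, a junction scaffold, was detected on any array, and Cdh1 (E-cadherin), Epcam, Krt8, Krt18 and Ocln (occludin) were not. The proximal tubule genes Lrp2, Cubn and Aqp1 were detected on all 3 arrays, whereas Slc34a1 and Slc5a2 were not, and the summed signal of these 5 genes was 3269, 5988 and 4825 in the same order of groups. Lrp2 alone made the sum higher, with log2 differences from vehicle of 1.37 for calcitriol and 0.88 for calcidiol on its brightest probe. The mean over its other measured probes was smaller, at 0.79 and 0.23. Aqp1 was at -0.69 and -0.61 and Cubn at -0.18 and -0.02. All 3 leukocyte markers (Ptprc, Cd68 and Itgam) were detected on every array, with summed signals between 1435 and 1617. For Ptprc (5 probes) and Itgam (2 probes) this rests on the brightest probe. No other probe of these genes was detected on both arrays of any comparison. None of the markers of the thick ascending limb (5) or intercalated cells (4) was detected, and 1 each of the principal cell, endothelial and fibroblast markers was (Aqp2, Kdr and Col1a1). These 3 genes were lower with both hormones: Col1a1, a collagen of fibroblasts, was at -1.28 with calcitriol and -0.78 with calcidiol, Kdr at -0.86 and -0.32, and Aqp2 at -0.48 and -0.46. The part of these markers in the results below was not tested.

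Cldn2 was the single claudin measured on all 3 arrays that was at least 2-fold apart between them, and the sequences behind its reading are shown first. Its downstream probe (mm9 chrX:136345244-136345303) and its upstream probe (mm9 chrX:136343432-136343491) start 1812 bases apart, both on the plus strand. The downstream probe holds a stop codon in each of its 3 reading frames and is not printed. The upstream probe has 1 frame without a stop codon. Which exon or untranslated region each probe lies in was not looked up, since no mm9 annotation was used here. The bases of the upstream probe, as deposited in the scanner files, are given on the next line.
Cldn2 upstream probe: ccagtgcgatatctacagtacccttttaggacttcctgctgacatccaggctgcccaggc

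The 250 bases before the Cldn2 start in RefSeq (GRCm38.p6, chrX:139800558-139800807, plus strand) were read for sites of the vitamin D receptor, which binds pairs of 6-base hexamers spaced by 3 bases, known as DR3. Capitals mark the hexamer found.
Cldn2 promoter: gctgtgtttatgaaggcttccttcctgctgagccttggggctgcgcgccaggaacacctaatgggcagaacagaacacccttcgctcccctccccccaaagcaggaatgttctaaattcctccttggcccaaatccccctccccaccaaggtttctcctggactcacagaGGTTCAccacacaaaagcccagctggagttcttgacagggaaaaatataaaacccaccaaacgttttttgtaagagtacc
The hexamers searched were AGGTCA and GGGTCA, as well as AGTTCA and GGTTCA, on both strands, and a DR3 is a pair of them, so the searches overlap. The Cldn2 window held 1 hexamer, GGTTCA, which begins 80 bases before the start, and no DR3. Such a hexamer is common, since 38.6% of 32851 windows of this length hold one, while a DR3 was found in 0.0396% of them. Windows were listed for 9 of the 10 claudins, all but Cldn8, with 13 windows in all, of which 6 (from 5 genes) held a hexamer and 0 a DR3. The windows of Cldn12 and Cldn15 held none. These matches describe letters in a short window and say nothing of binding.

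Among the pore-forming claudins, the downstream Cldn2 probe read a processed signal of 26.0 ± 3.91 with vehicle, 463 ± 46.4 with calcitriol and 118 ± 12.4 with calcidiol. The vehicle signal was therefore just above the detection limit, calcitriol gave the highest signal and calcidiol lay between them. Before any subtraction the mean spot signals were 99.5, 553.6 and 189.4, over local backgrounds of 67.5, 67.0 and 63.0 in that order. Relative to vehicle, and after scaling each array to its 75th percentile, Cldn2 was 17.4-fold higher with calcitriol (log2 difference 4.12 ± 0.26) and 4.20-fold higher with calcidiol (2.07 ± 0.26). Only 2 of 16653 genes measured on both arrays had a larger difference with calcitriol, and 15 of 16646 with calcidiol. Both differences use the same vehicle array. These sizes are uncertain because the vehicle signal is dim: they were 2.69 and 1.02 on the log2 scale with another background correction (normexp) and quantile normalization, and 3.09 and 1.30 with an offset of 32 added to the signals. When genes under the 25th percentile of signal were dropped, Cldn2 was no longer measured against vehicle in either comparison.

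**Figure D1:**
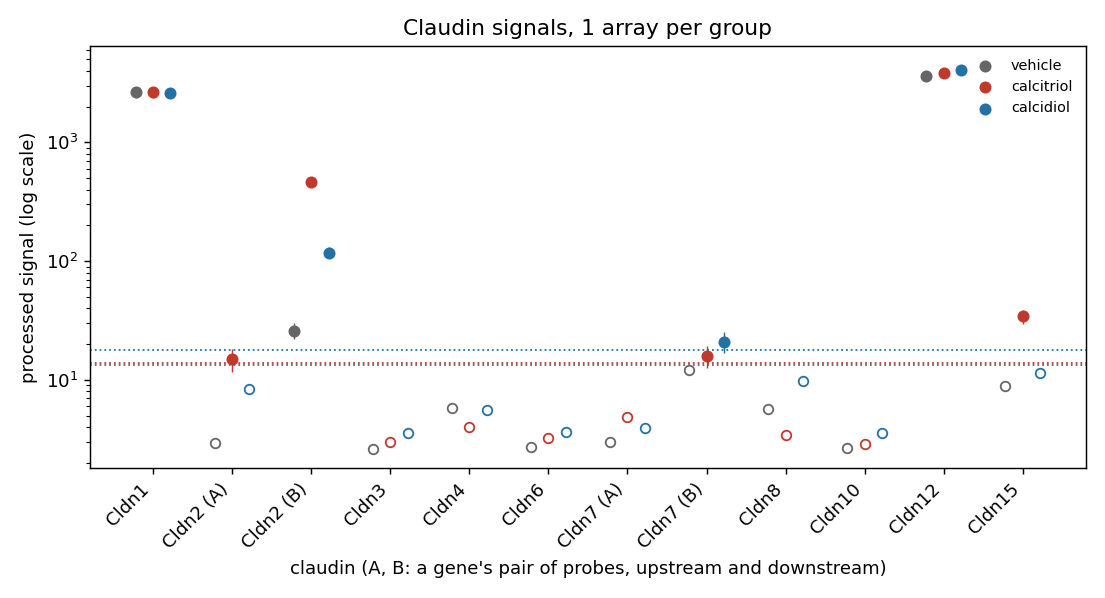
Processed signal (log axis) of each claudin probe on the vehicle, calcitriol and calcidiol arrays. Filled points were well above background and carry the scanner's error as a bar, open points were not and have no reliable level, and dotted lines mark the lowest detected signal on each array. The downstream Cldn2 probe (B) spans 26.0 to 463 while Cldn1 and Cldn12 lie level.

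The upstream Cldn2 probe was near or below its detection limits. It read 2.92 with vehicle, a surrogate value, 15.02 ± 3.28 with calcitriol and 8.34 ± 4.01 with calcidiol, and only the calcitriol array detected it. The values with vehicle and calcidiol were not well above background and have no order. As a lower bound it was at least 1.1-fold higher with calcitriol than with vehicle, so this probe gives no independent measure of the size.

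Spots printed repeatedly give a technical yardstick for signals like those of Cldn2. Among probes printed 10 times and detected at every spot, those with mean signals between 15 and 60 had a median SD between spots of 0.18 on the log2 scale with vehicle (2 probes) and 0.26 with calcidiol (2 probes). Between signals of 60 and 600 the median SD was 0.17 with calcitriol (7 probes) and 0.14 with calcidiol (8 probes). The largest SD of a single probe in that range was 0.58, with calcitriol. The Cldn2 differences were larger than these values, which describe spots of 1 array and leave out differences between cultures.

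Cldn15, the other cation pore of the intestine, was dim as well. Its probe (mm9 chr5:137451465-137451524) read 8.86 with vehicle, 34.4 ± 4.55 with calcitriol and 11.35 with calcidiol, and was detected with calcitriol only. Calcitriol was thus the single high array and the others lay below their detection limits. Cldn15 was at least 2.51-fold higher with calcitriol than with vehicle and at least 2.03-fold higher than with calcidiol. It has no other probe to compare. Cldn10, read by a probe whose annotation lists several transcripts of the gene, was not detected on any array (surrogate signals of 2.69 to 3.55), so no fold is given.

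Cldn12, which in the intestine is linked to calcium permeability, was bright and level. Its signals were 3640 with vehicle, 3848 with calcitriol and 4059 with calcidiol (probe at mm9 chr5:5505223-5505282, minus strand). Its log2 differences from vehicle were 0.05 ± 0.20 for calcitriol and 0.05 ± 0.20 for calcidiol, less than the scanner's error. The calcidiol difference was -0.02 after centring arrays on their median and -0.01 with normexp, so its direction is not settled.

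Of the sealing claudins, Cldn1 was detected on all arrays and was as level as Cldn12. It read 2632, 2631 and 2608 with vehicle, calcitriol and calcidiol (probe at mm9 chr16:26356740-26356799, minus strand), differences from vehicle of -0.03 ± 0.20 and -0.12 ± 0.20. The first of these also changed sign under median centring, to 0.09. Cldn7, a claudin of the distal nephron, was near the limit: its downstream probe (mm9 chr11:69781255-69781314) read 12.1 with vehicle, not detected, 16.1 ± 3.33 with calcitriol and 21.0 ± 4.18 with calcidiol. As bounds, it was at least 1.17-fold and 1.46-fold higher than vehicle. Its upstream probe (mm9 chr11:69778772-69778831) was not detected on any array, at 3.01, 4.84 and 3.91.

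The remaining claudins were not detected with any treatment. Cldn3 (mm9 chr5:135463284-135463342) and Cldn4 (mm9 chr5:135422135-135422194), neighbours on chromosome 5, read 2.64 to 3.59 and 4.01 to 5.85. Cldn8 (mm9 chr16:88561135-88561194), which acts with Cldn4 in the collecting duct, read 5.73, 3.45 and 9.78. Cldn6 (mm9 chr17:23819027-23819086), a claudin of embryonic epithelia, read 2.71 to 3.66. The Cldn3 spot lay within 2 rows or columns of the edge of the array, and those of Cldn6 and Cldn8 within 8. With Cldn10, these 5 genes give no difference, and a transcript below the detection limits above would not have been seen.

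Counted by gene from the brightest probe, 3 of the 10 claudins were measured on both arrays of a hormone and vehicle. With calcitriol 1 of 3 was at least 2-fold higher (Cldn2) and 0 lower, against 0.961% and 1.63% of all genes measured. With calcidiol it was again 1 of 3 higher and 0 lower, against 0.853% and 0.144% of all genes. Of the 2 claudins detected with calcitriol but not with vehicle, Cldn15 passed 2-fold by its bound and Cldn7 did not. Of all genes detected on only 1 of these arrays 6.96% passed. That base also counts genes detected only with vehicle, which could not pass, so the share among comparable genes is higher. With calcidiol Cldn7 was the single claudin detected with the hormone but not with vehicle, and it did not pass. The share of all genes, on a base that again includes those detected only with vehicle, was 10.8%. The median of the measured claudins was 0.05 with either hormone, set by Cldn12, beside medians of all genes within 0.01 of 0. Centring arrays on their median moved the median of all genes to 0.12 with calcitriol and -0.07 with calcidiol, and turned the 160 higher and 271 lower genes with calcitriol into 222 and 183.

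**Figure D2:**
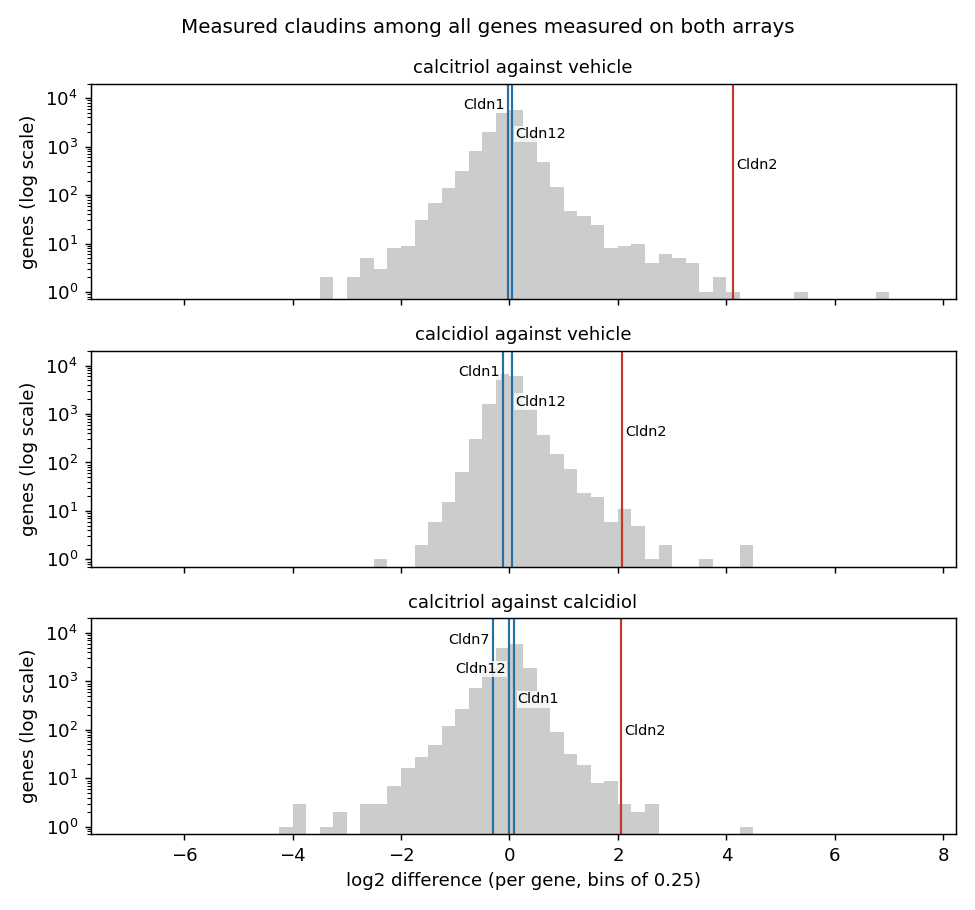
Histograms of log2 differences over all genes measured on both arrays (log count axis, bins of 0.25) for the 3 comparisons, with lines at the measured claudins. Cldn2 lies in the right tail at 4.12, 2.07 and 2.05, and Cldn1 and Cldn12 lie at the centre in each panel.

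Calcitriol carries a hydroxyl group that calcidiol lacks, at the position that the deleted enzyme modifies, and the compounds make 1 pair at equal dose and time. For Cldn2 the calcitriol array exceeded the calcidiol array 4.14-fold (log2 difference 2.05 ± 0.21), and 8 of 16499 genes had a larger difference. This comparison does not use the vehicle array, and both signals were well clear of the detection limits. The log2 difference was 1.67 with normexp and quantile normalization, 1.78 with an offset of 32 and 2.23 with median centring. Cldn12 differed by 0.00 ± 0.20 and Cldn1 by 0.09 ± 0.20. For Cldn7 the calcidiol array was the higher, at -0.31 ± 0.41 for calcitriol minus calcidiol. None of these 3 was apart by more than the scanner's error, which with 1 array each does not show that the compounds act alike on them. Of 4 measured claudins 1 was at least 2-fold higher and 0 lower with calcitriol, against 0.467% and 1.41% of all genes. Cldn15 passed 2-fold by its bound, as did 3.56% of genes detected on only 1 of the 2 arrays. That base includes genes detected only with calcidiol, which could not pass. Centring on the median turned the 77 higher and 232 lower genes of this comparison into 133 and 133.

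**Figure D3:**
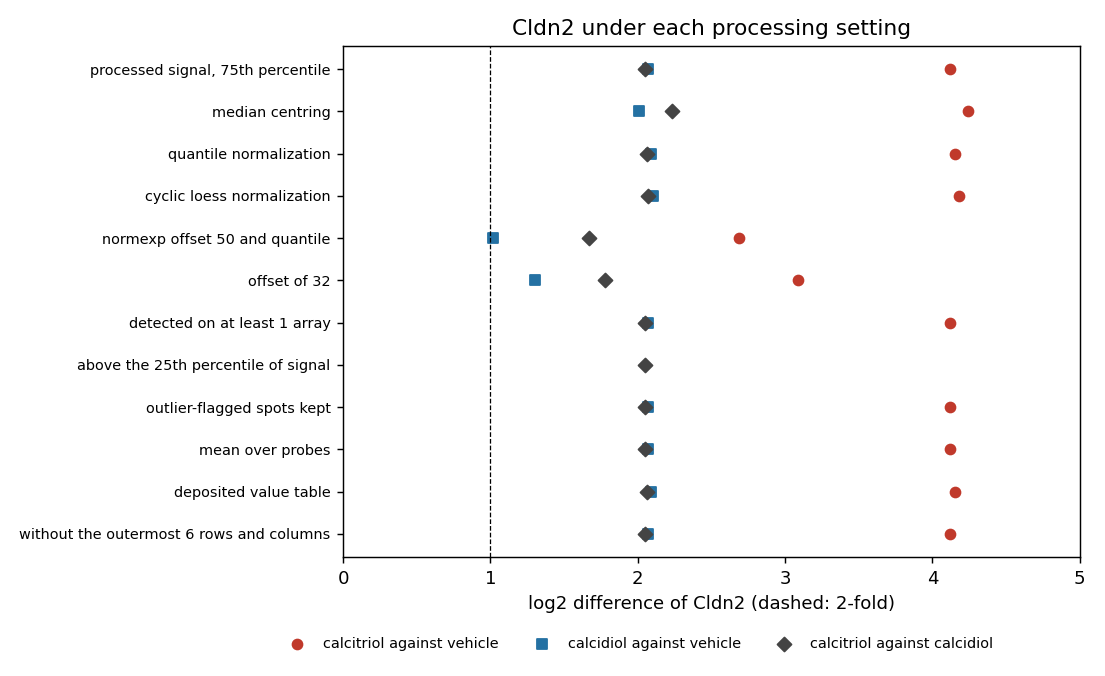
Log2 difference of Cldn2 in the 3 comparisons under each processing setting. All values lie above the dashed 2-fold line, from 1.02 (calcidiol against vehicle, normexp) to 4.24 (calcitriol against vehicle, median centring), and no value against vehicle exists for the filter at the 25th percentile.

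The other claudins on the array were mostly silent. Of 22 further claudin genes 2 were measured in every comparison. Cldn9, the neighbour and close relative of Cldn6, read 39.5, 49.4 and 42.1 with vehicle, calcitriol and calcidiol, a difference of 0.29 ± 0.24 with calcitriol and -0.02 ± 0.26 with calcidiol. Cldn34c1, a member of a gene cluster whose copies its probe may not tell apart, differed by -0.07 and 0.12. Its other measured probes averaged -0.30 and -0.20, so its direction with calcidiol is not settled. Cldn23 was detected with calcidiol only, at 25.9, which is at least 1.80-fold above vehicle. Cldn34c4 went the other way and was detected with vehicle only, at 15.6, which is at least 1.16-fold above calcitriol. Against calcidiol, whose detection limit was higher, it has no bound. Cldn16 and Cldn19, the magnesium and calcium pore partners of the thick ascending limb, were not detected.

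The junction that claudins join was examined through 40 names of junction proteins and their regulators and 12 transcription factors. Of the junction genes 30 were measured and 0 were at least 2-fold higher or lower in any of the 3 comparisons. Scaffold and linker proteins below the membrane went either way, and their probes often differed. Tjp1 (ZO-1) differed by 0.21 with calcitriol and 0.12 with calcidiol, and by 0.43 and -0.06 on its other probe. Tjp3 (ZO-3) differed by -0.21 and 0.06, and by -0.02 and -0.33 on its other probe. Cgn (cingulin) was at 0.39 and 0.28, and at 0.73 and 0.98 on its other probe. Magi1 was at -0.39 and -0.14, and its other measured probes averaged -0.63 and -0.33. Marveld2 (tricellulin), which seals junctions where cells meet in corners, read 36.6, 50.1 and 51.0, differences of 0.42 ± 0.26 and 0.37 ± 0.26. F11r, the junctional adhesion molecule A, had the highest difference with calcitriol, reading 1612, 2476 and 1892, with 0.59 ± 0.20 for calcitriol and 0.12 ± 0.20 for calcidiol. Wnk4, a kinase that phosphorylates claudins, read 90.7, 65.8 and 68.9, differences of -0.50 ± 0.22 and -0.51 ± 0.22. It was the lowest junction gene with calcidiol and, beside Mpdz, a junction scaffold at -0.50, with calcitriol. The other Wnk4 probe gave -0.21 and -0.11, closer to level, and the other measured Mpdz probes averaged -0.28 with calcitriol. The list median was 0.05 with calcitriol and 0.01 with calcidiol.

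Among the transcription factors, Snai1, the repressor Snail that binds claudin and E-cadherin promoters, read 138.6 with vehicle, 61.5 with calcitriol and 125.4 with calcidiol. Vehicle and calcidiol were close and calcitriol was low. Its differences were -1.20 ± 0.22 with calcitriol and -0.26 ± 0.21 with calcidiol, and -0.95 ± 0.22 between calcitriol and calcidiol. It was the 1 gene of the 39 measured over all these lists that was at least 2-fold lower with calcitriol, against 1.63% of all genes, and the call ended with normexp and quantile normalization (-0.66) and with an offset of 32 (-0.90). Snai1 was no longer measured in that comparison when genes under the 25th percentile of signal were dropped, and it does not reach 3-fold. Twist1, another repressor of epithelial genes, read 113, 71.9 and 118.6, at -0.69 ± 0.21 with calcitriol and -0.04 ± 0.21 with calcidiol. Twist1 was named after its values were seen. Related factors on the list did not share the pattern of Snai1 and Twist1. Snai2 was at 0.08 with calcitriol and 0.32 with calcidiol. Zeb1 was at -0.38 and -0.36 and Zeb2 at -0.06 and -0.07, each on its brightest probe. Cebpb, a C/EBP factor, had the highest difference with calcidiol, 0.44 ± 0.20, and 0.55 ± 0.20 with calcitriol. Hnf4a, Cdx2 and Gata4, factors of gut or kidney epithelia, were not detected.

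**Figure D4:**
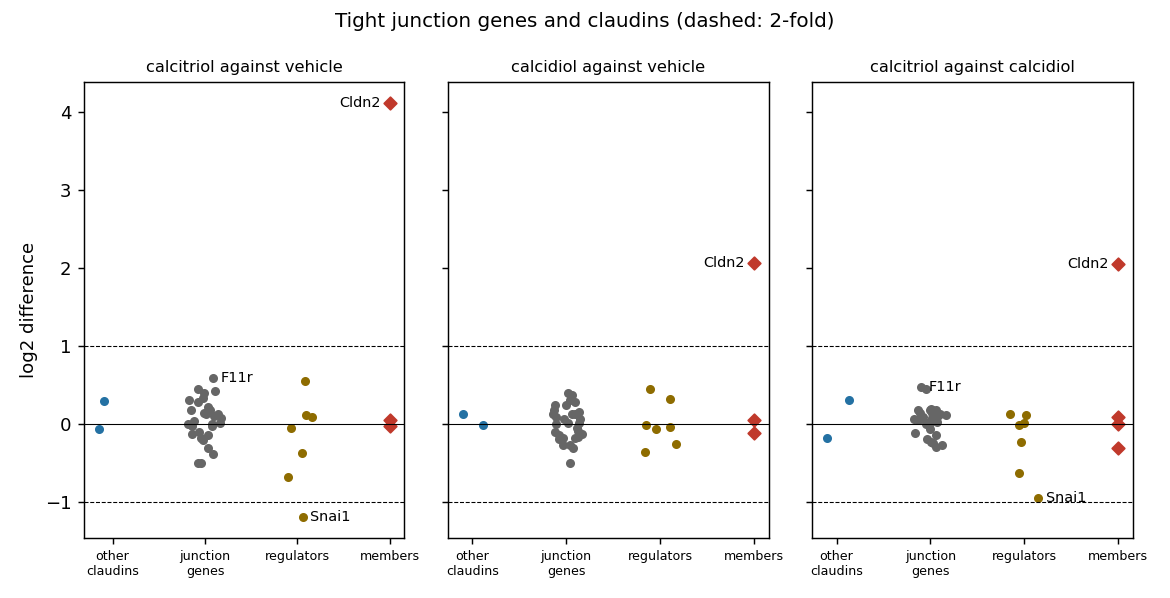
Log2 difference (vertical axis) of other claudins, junction genes, transcription factors and the claudins described here in the 3 comparisons, 1 point per gene or probe measured on both arrays, with dashed lines at 2-fold. Cldn2 stands above 2-fold in each panel and Snai1 lies below -1 with calcitriol against vehicle only.

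The genes whose pair of differences from vehicle lay nearest that of Cldn2, out of 16378 measured on all 3 arrays, were Spp1, Slco1a6, Cyp1b1, Npr3 and Cnn1. Their Euclidean distances from Cldn2 in log2 units, over the 2 differences and 3 arrays, were 0.34, 0.45, 0.50, 0.78 and 1.02. Spp1 (osteopontin) read 1685, 25074 and 8938 with vehicle, calcitriol and calcidiol, so that its vehicle signal was far from the detection limit, unlike that of Cldn2. Slco1a6, an organic anion transporter, read 24.7, 373 and 146. For Cldn2 the calcidiol difference was 0.50 of the calcitriol difference on the log2 scale. This ratio and the distances rest on the dim vehicle signal of Cldn2 and are given for the main processing only. With normexp and quantile normalization the Cldn2 differences were 2.69 for calcitriol and 1.02 for calcidiol. With an offset of 32 they were 3.09 and 1.30. The calcidiol share was smaller in both settings, and the distances were not recomputed there, so neither size is settled. All of these differences share the vehicle array.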

How the data were processed

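Total RNA was isolated with TRIzol and a column, amplified, labelled with Cy3 and hybridised to 1-colour Agilent mouse arrays, per the labels' protocols. The deposited scanner files hold spot intensity on a linear scale, background-subtracted and detrended within each array by Agilent Feature Extraction 10.7.1.1, per the file headers (the submitters' processing notes name 9.5.1.1), with probes placed on mm9. The deposited value table also holds intensity, and how its columns were scaled is not given in the sources used. Its log2 values have a median of 3.71 in each column and have a correlation of at least 0.99992 with the scanner signals, so it is linear and runs the same way. It served as an alternative only. Its Cldn2 differences (4.15 and 2.09 from vehicle, 2.06 between the compounds) equalled those of quantile normalization, so these 2 settings hardly count as separate.

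Control spots and outlier-flagged spots, local background flags included, were left out, and the flags removed 1489 probes altogether. No spot was saturated. Each array's 75th percentile (371.1 for vehicle, 379.8 for calcitriol, 400.8 for calcidiol) was the divisor before log2. It was taken over all 59305 non-control spots, flagged ones included. Claudins were found by the design's gene name. Other genes were named through accessions in a RefSeq table of GRCm38.p6 (58.29% of 56605 probes), else by the design's name, and were read from their brightest probe. A difference needed detection on both arrays. With detection on 1, the bound is the bright level over the higher of the dim array's lowest detected signal and the probe's own. Precision is limited by 1 array per group, so no test was run and genes were described by a 2-fold size. The members, lists and alternatives were chosen with earlier results of these data known. The rule for named genes took all members, list genes at least 2-fold apart, each list's extremes and the 5 genes nearest Cldn2. Junction genes that mark a role were added, as were some other claudins and transcription factors outside that rule. Sequences come from the scanner files and RefSeq (GRCm38.p6), and protein sequences were not used here. Counting was tested on simulated data. Tools were limma 3.58.1 in R 4.3.3 for the alternative normalizations, and pandas 2.3.3 and matplotlib 3.10.9 under Python 3.11.15. Some genes of the lists are counted in them but not reported here by name.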

Additional observations from a re-analysis of the deposited data

How the results depend on the processing

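The processing was varied by median centring, by quantile or cyclic loess normalization, normexp with an offset of 50 plus quantile normalization, an offset of 32, looser and stricter filters on dim probes, keeping outlier spots, averaging probes, the deposited value table, leaving out the outermost 6 rows and columns, and thresholds of 1.5-fold and 3-fold. Of 78 alternative counts of claudins 74 equalled the reported one, and of 33 medians 31 moved by less than the scanner's error. These tallies include settings that could not add or remove a claudin. No claudin probe was outlier-flagged, and no claudin had a second probe measured on both arrays to average. The probes of the detected claudins lay at least 27 rows or columns from the edge. With detection required on only 1 array, 2 claudins were at least 2-fold higher with calcitriol than with vehicle and 2 than with calcidiol, where 1 was reported, and the claudin median was 0.37 with calcitriol and 0.37 with calcidiol, because Cldn7 and Cldn15 then enter against vehicle with calcitriol, and Cldn7 with calcidiol. When genes under the 25th percentile of signal were dropped, 0 claudins were 2-fold higher than vehicle with either hormone, since Cldn2 drops out. Of the values of single claudins under these settings 6 moved by more than the error, all of Cldn2 under the offset of 32 or normexp, and Cldn2 kept its sign in each.

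Counts over all genes moved with the fold threshold and with the handling of dim signals. Higher and lower genes were 563 and 1041 with calcitriol against vehicle, 472 and 221 with calcidiol and 357 and 916 between the compounds at 1.5-fold, and 66 and 47, 40 and 3, and 23 and 53 at 3-fold. They were, in the same order of comparisons, 106 and 138, 77 and 7, and 48 and 113 with the offset of 32, and 93 and 147, 70 and 7, and 43 and 128 above the 25th percentile of signal. They were 345 and 627 with calcitriol against vehicle, 447 and 228 with calcidiol and 223 and 628 between the compounds with detection on 1 array, and 93 and 104, 76 and 4, and 34 and 126 with normexp. Signal over background limits what can be said of the claudins other than Cldn1 and Cldn12, the size of the Cldn2 differences from vehicle included. No paired analysis was possible because each group has 1 array.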
